A study of Bos taurus with 8 samples.

Results

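The solute carriers are the large superfamily of membrane proteins named SLC and a family number that move sugars, amino acids, ions, nucleotides and metabolites across the cell surface and the membranes of organelles without splitting ATP themselves. The genes described here were those whose symbol begins with SLC and a digit, which leaves out the SLCO family of organic anion transporters. A probe was given a symbol through the RefSeq accession printed for it on the array, and 189 of 21475 probes, standing for 176 genes, met this rule. Of these, 156 probes of 145 genes had a signal well above background in 4 or more of the 16 channels and were tested.

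RNA came from primary muscle cell cultures of bulls aged 15 months, of the beef breeds LIM (Limousin) and HER (Hereford) and the dairy breed HF (Holstein-Friesian), grown from semitendinosus muscle in medium with serum and harvested while proliferating at 80% confluence. On each of 8 arrays, RNA of a beef-breed culture was hybridised beside RNA of an HF culture, on 4 arrays LIM in Cy5 against HF in Cy3 and on 4 arrays HER in Cy3 against HF in Cy5. The labels call the arrays of a comparison biological replicates, and which HF culture lay on which array is not given in the sources used here. With 4 bulls per breed, the HF samples of the 8 arrays came from 4 animals, so both comparisons share HF bulls. The fits treated the 8 arrays as independent, and the errors and p-values of the mean of both breeds do not take this sharing into account. The LIM arrays were on one slide and the HER arrays on another, so that within a comparison the breed cannot be told apart from slide and dye, while a dye effect common to both slides cancels in the mean of both breeds, in which LIM and HER count equally. A difference between breeds, as named below, is the LIM ratio minus the HER ratio, and it holds the difference of dye and slide as well.

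Carriers of the SLC2 family let glucose and related polyols enter cells, and in skeletal muscle SLC2A4 (GLUT4) is the form that insulin and contraction bring to the surface, beside the basal carrier SLC2A1 (GLUT1). Amino acid carriers of the SLC1, SLC6, SLC7 and SLC38 families feed protein synthesis and osmolyte uptake, and the SLC16 carriers move lactate and pyruvate with protons. The SLC25 family sits in the inner mitochondrial membrane, where it exchanges ADP for ATP and moves substrates of respiration, while SLC30, SLC39 and SLC40 carriers handle zinc and iron and SLC35 carriers bring nucleotide sugars and nucleotides into the Golgi and the endoplasmic reticulum.

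All values are log2 ratios of beef breed over HF, made from the log10 ratio of the scanner software, and a gene with several probes was read by its brightest one. A gene was called higher or lower where its limma p, adjusted by Benjamini-Hochberg over all 17622 probes tested, was at most 0.05 and its fold change at least 1.3. Per channel, 68.8% to 85.2% of probes exceeded background clearly, no spot was saturated, and array medians of the log2 ratio lay between -0.07 and 0.02. HER replicate 3 had the lowest share of probes above background in its beef channel, at 68.8%, and 130 spots marked as outliers against 6 to 37 on the other arrays. The 9 tested markers of differentiating muscle cells were all called higher in the mean of both breeds, with a median log2 ratio of 3.33, so the beef and HF cultures differed in these transcripts throughout the comparisons below.

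Both higher and lower carriers were found in each beef breed, at shares below those of the array as a whole. In LIM relative to HF, 41 of 145 genes (28.3%) were called, 18 higher and 23 lower, beside 34.4% of all probes tested (16.1% higher, 18.3% lower). In HER relative to HF, 30 genes (20.7%) were called, 14 higher and 16 lower, beside 24.4% of all probes (10.4% higher, 14% lower), and 4 of the 30 (SLC24A1, SLC26A7, SLC19A3 and SLC46A3) were below background in both channels on every HER array, so their HER ratios measure no level. The mean of both breeds gave 44 called genes (30.3%), 22 in each direction, beside 38.1% of all probes (17.7% higher, 20.4% lower). The median log2 ratio over the carriers was 0.00 in LIM, -0.05 in HER and -0.03 in the mean, against -0.01, -0.06 and -0.04 over all probes. The HER count depended on single arrays and was 9, 7, 14 and 19 without HER replicates 1, 2, 3 and 4, and the LIM count was 26, 27 and 25 without LIM replicates 1, 2 and 3. Normexp background correction with loess dye normalization was also tried in place of the scanner software's own steps. The mean of both breeds then gave 22 called genes, all among the 44, and HER alone gave 0 by limma (13 at an unadjusted p of at most 0.05), against 30. The other background corrections named below all used loess too, so a lost call cannot be laid to the background step alone.

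**Figure D1:**
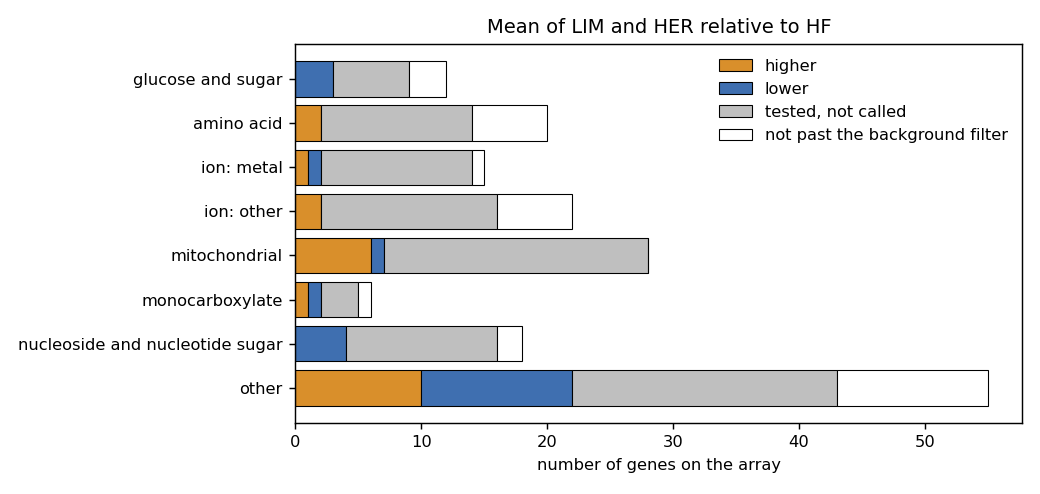
Number of solute carrier genes on the array by class, split into genes called higher (orange) or lower (blue) in the mean of LIM and HER relative to HF, tested genes that were not called (grey) and genes not past the background filter (white). All 28 mitochondrial carriers passed the filter, and the class of other carriers held 22 of the 44 called genes.

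Glucose and sugar carriers were the class with the lowest median in HER relative to HF. Of 9 tested genes, 3 were called lower in the mean of both breeds (SLC2A13, SLC2A4 and SLC45A1) and none higher, a share of 33.3% called beside 38.1% of all probes, or 20.4% counting lower calls alone. The class median was -0.12 in LIM (2 called lower) and -0.43 in HER (4 called lower, 44.4% beside 14% of all probes), against -0.01 and -0.06 over all probes. The HER median ran from -0.05 to -0.16 under the other background corrections and without the filter, and was -0.71 over carriers above background in all channels.

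SLC2A4 (NM_174604), the insulin-responsive glucose carrier of muscle and fat, was lower in beef cells on every array. Its log2 ratios were -0.61, -0.59, -1.0 and -0.53 on LIM replicates 1 to 4. On HER replicates 1 to 4 they were -1.05, -1.02, -1.10 and -1.55. The LIM and HER values did not overlap, though LIM replicate 3 lay next to the HER arrays, and HER replicate 4 was the lowest of all arrays. The mean of both breeds was -0.93 ± 0.09 (SE, n = 8 arrays; 1.91-fold lower, limma adjusted p = 0.000259), with -0.68 in LIM and -1.18 in HER, and the difference between breeds did not pass (limma adjusted p = 0.255). Under normexp correction the call was kept at a smaller ratio of -0.38. Of the genes listed for insulin-stimulated glucose uptake around this carrier, 1 of 9 tested was called, beside 38.1% of all probes. It was STXBP3 (log2 ratio 0.49, limma adjusted p = 0.00104), a syntaxin-binding protein of vesicle fusion, and it was higher.

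SLC2A13 (NM_001192963), the proton-coupled myo-inositol carrier, showed the largest fall among the glucose and sugar carriers. The ratios were -1.03, -1.41, -2.20 and -1.19 on the LIM arrays and -1.84, -1.05, -0.92 and -0.86 on the HER arrays. The ranges of the breeds overlapped, with LIM replicate 3 and HER replicate 1 lowest. The mean was -1.31 ± 0.16 (2.48-fold lower, limma adjusted p = 0.000437), and in the mean the gene stayed called under every alternative tried, between -1.39 and -1.0.

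SLC2A1, the basal glucose carrier, gave ratios of -1.05, -0.23, -0.29 and 0.97 on the LIM arrays and -0.75, -1.55, -1.86 and -0.35 on the HER arrays. All HER arrays were below 0, while LIM replicate 4 was far above 0. The gene was called lower in HER (-1.13 ± 0.34 SE, limma adjusted p = 0.0412) but not in LIM (-0.15) or in the mean (-0.64, limma adjusted p = 0.0542), and the difference between breeds did not pass (limma adjusted p = 0.387). The HER call was lost without any of LIM replicates 2 and 3 and HER replicates 1, 2 and 3. SLC45A1, a proton-associated sugar carrier, had a mean of -0.46 ± 0.13 (limma adjusted p = 0.0209), a call that was lost under all 3 other background corrections, between -0.12 and -0.04, and without LIM replicate 1 or 3 or HER replicate 2.

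SLC2A3 (GLUT3), a high-affinity glucose carrier, varied more between cultures than between breeds. Its ratios were -1.21, 2.11, 0.69 and 2.57 on the LIM arrays and 2.44, -0.11, -1.32 and 2.03 on the HER arrays. High values stood on LIM replicates 2 and 4 and HER replicates 1 and 4, and both breeds ran from clearly below 0 to far above it. The mean of 0.90 ± 0.52 did not pass (limma adjusted p = 0.185). Most tested transcripts of endothelial cells varied widely as well, with SDs over arrays of 1.59 to 3.56, and CLDN5 was the exception. CLDN5 had SDs of 0.18 in LIM and 0.23 in HER, and was called lower in HER (log2 ratio -0.57, limma adjusted p = 0.0147). The median over 7 tested endothelial markers was -0.69, 3.31, 0.87 and 3.09 on the LIM arrays and 3.32, -0.41, -2.76 and 1.51 on the HER arrays. Their summed signal ranged from 722 to 13400 in LIM and from 286 to 9340 in HER cultures, against 959 to 3210 and 632 to 1880 in the HF cultures beside them. None of the 7 was called in the mean of both breeds, all were above background on at least 7 of 8 beef arrays, and the part of such cells in the SLC2A3 values was not tested. In such bulk cultures, more cells of a type and more RNA per cell cannot be told apart.

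SLC20A2, a sodium-phosphate carrier, was high and low on the same arrays. It gave -0.22, 1.47, 0.42 and 2.01 on the LIM arrays and 1.40, -0.40, -0.30 and 0.95 on the HER arrays. The amino acid carrier SLC7A8, singled out after its values were seen, had the widest spread of these genes, with -0.34, 3.04, -0.82 and 4.23 on the LIM arrays and 3.20, 0.99, -5.04 and 2.90 on the HER arrays. For both genes the high arrays included LIM replicates 2 and 4 and HER replicates 1 and 4, and neither mean passed (SLC20A2 0.67, limma adjusted p = 0.09, and SLC7A8 1.02, limma adjusted p = 0.408).

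**Figure D2:**
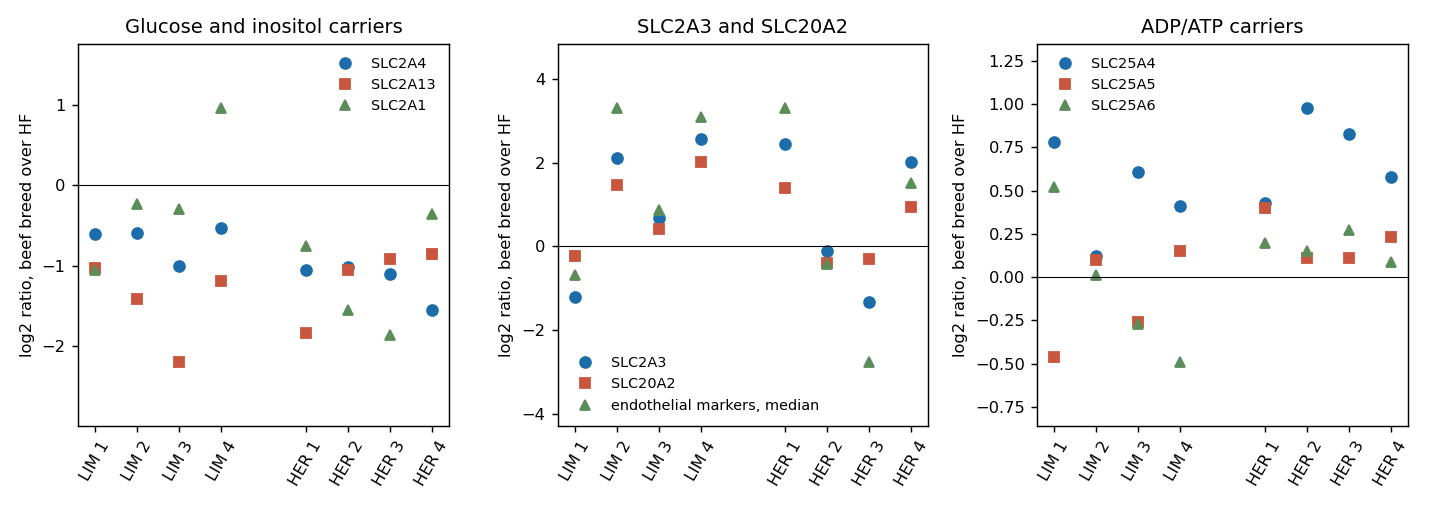
Log2 ratio of beef breed over HF (y axes) on each of the 8 arrays (x axes) for SLC2A4, SLC2A13 and SLC2A1 (left), for SLC2A3 and SLC20A2 with the median over 7 endothelial markers (middle), and for the ADP/ATP carriers SLC25A4, SLC25A5 and SLC25A6 (right), 1 point per array. SLC2A4 and SLC2A13 were below 0 and SLC25A4 above 0 on all 8 arrays, while SLC2A3 ran from -1.32 to 2.57.

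Amino acid carriers were mostly not called. Of 14 tested genes, 2 were called higher in the mean of both breeds (SLC6A6 and SLC6A14) and none lower, a share of 14.3% beside 38.1% of all probes. The class median was 0.05 in LIM (1 called higher) and 0.22 in HER (2 called higher), and HER array medians lay between -0.04 and 0.31. Under normexp correction with local backgrounds as measured, the HER median was 0.04.

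SLC6A6 (NM_174610), the taurine carrier, was higher in beef cells on 7 of 8 arrays. Its ratios were 0.80, 1.32, 0.06 and 1.23 on the LIM arrays and 1.22, 1.47, -0.25 and 1.40 on the HER arrays. HER replicate 3 stood alone below 0, and LIM replicate 3 was close to 0. The mean was 0.91 ± 0.22 (1.88-fold higher, limma adjusted p = 0.00979), with 0.85 in LIM and 0.96 in HER, neither of which passed alone.

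SLC6A14, a broad carrier of neutral and cationic amino acids, was well above background in HF cells on 1 of 8 arrays, so its level there was close to the limit of detection. The ratios were 2.41, 2.02, 2.13 and 0.51 on the LIM arrays and 0.83, 1.41, 0.22 and -0.05 on the HER arrays. In LIM, where HF cells were below background on all 4 arrays, it was at least 1.93-fold higher, and since the gene passed the filter mainly through beef channels no p is given. This bound sets the dim side of each array at the lowest signal well above background or at the probe's own signal, whichever was higher. It was taken from the scanner software's signals after their mean intensities were brought to the same distribution on all arrays. The call in the mean was lost under the other background corrections, between 0.11 and 0.25.

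Carriers of large neutral amino acids and glutamine were not called in the mean. SLC7A5 (LAT1), the leucine exchanger, gave 0.27, -0.46, -0.15 and 0.01 on the LIM arrays and 0.39, 0.38, 0.50 and 0.44 on the HER arrays. The HER arrays lay close together and above all LIM arrays, and the gene was called higher in HER only (0.43 ± 0.13 SE, limma adjusted p = 0.039), with no call for the difference between breeds (limma adjusted p = 0.236). Leaving out any HER array, or LIM replicate 3, ended the HER call. The glutamine carrier SLC1A5 had a mean of -0.35 (limma adjusted p = 0.158) and SLC38A2, a sodium-coupled carrier of small neutral amino acids, one of 0.01 (limma adjusted p = 0.894). Among genes listed as targets of ATF4, the factor that raises many amino acid carriers during amino acid shortage, 5 of 11 tested were called higher and none lower, with VLDLR at 1.35, DDIT3 at 0.98, ATF3 at 0.58 and CHAC1 at 0.45, beside 17.7% of all probes called higher.

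The mitochondrial carriers all passed the background filter, and 7 of 28 (25%) were called in the mean of both breeds, 6 higher and 1 lower, beside 38.1% of all probes (17.7% higher, 20.4% lower). Their median was 0.06 or less in each comparison (LIM 5 higher and 1 lower, HER 4 higher and 1 lower), so the called genes were a few members of a class centred near 0.

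SLC25A34 (NM_001034497), a mitochondrial carrier of unassigned substrate, had the smallest adjusted p of all carriers. It gave 1.53, 1.18, 1.13 and 1.34 on the LIM arrays and 1.3, 1.02, 0.62 and 0.96 on the HER arrays. Every array was well above 0, and the breeds overlapped. The mean was 1.13 ± 0.09 (2.19-fold higher, limma adjusted p = 0.000162). SLC25A21, the carrier of 2-oxoadipate and related dicarboxylates, gave 1.70, 0.38, 1.52 and 0.46 on the LIM arrays and 1.01, 1.82, 1.97 and 0.27 on the HER arrays. Replicates 4 of both breeds and LIM replicate 2 were low, the others high, and the mean was 1.14 ± 0.23 (limma adjusted p = 0.00427). In the mean, both genes stayed called under every alternative tried, down to 0.47 for SLC25A34 and 0.61 for SLC25A21 under normexp correction. Within a breed, SLC25A21 lost its call in LIM under 8 and in HER under 5 of 26 alternatives, and SLC25A34 in HER under 3.

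The 3 tested ADP/ATP carriers that are expressed outside germ cells did not give the same values. SLC25A4 (NM_174658), the form of heart and skeletal muscle, gave 0.78, 0.12, 0.61 and 0.41 on the LIM arrays and 0.43, 0.98, 0.83 and 0.58 on the HER arrays. It was above 0 on all arrays, with a mean of 0.59 ± 0.10 (1.51-fold higher, limma adjusted p = 0.00186), and was called in LIM (lost without LIM replicate 1 or 3) and in HER (lost without HER replicate 2). SLC25A5, the form linked to proliferating cells, had a mean of 0.05 (limma adjusted p = 0.678), with arrays from -0.46 to 0.40. SLC25A6, the widely expressed form, had a mean of 0.06 (limma adjusted p = 0.676), with arrays from -0.49 to 0.52, and the sign of this mean turned under normexp correction (-0.13) and without LIM replicate 1 (-0.04). Markers of differentiating muscle cells were higher on the same arrays as SLC25A4, by median log2 ratios of 2.29 to 4.15 on the LIM arrays and 2.51 to 3.01 on the HER arrays, and their part in the SLC25A4 values was not tested.

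Both carriers linked to mitochondrial glutathione were called higher in the mean. SLC25A39 gave 0.94, 0.91, 0.80 and 0.34 on the LIM arrays and 0.25, 0.40, 0.21 and -0.23 on the HER arrays (mean 0.45 ± 0.10, limma adjusted p = 0.00724). SLC25A40 gave 0.22, 0.16, 0.83 and 0.11 on the LIM arrays and 0.72, 0.30, 0.41 and 0.62 on the HER arrays (mean 0.42 ± 0.10, limma adjusted p = 0.0098). For SLC25A39, 3 LIM arrays lay above all HER arrays, whereas SLC25A40 was low on 3 LIM arrays, and neither breed difference passed (limma adjusted p = 0.235 and 0.741). The SLC25A40 call was lost without LIM replicate 3 and under the other background corrections, between 0.17 and 0.29.

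SLC25A22 (NM_001075159), a mitochondrial glutamate carrier, was the mitochondrial carrier called lower. Its ratios were -1.23, -0.78, -0.78 and -0.09 on the LIM arrays and -0.63, -1.02, -0.63 and -0.18 on the HER arrays. Replicates 4 of both breeds were nearest to 0, and the mean was -0.67 ± 0.14 (1.59-fold lower, limma adjusted p = 0.00471). SLC25A20, which brings acylcarnitines into mitochondria for fat oxidation, was not below 0 on any array, at 0.80, 0.36, 0.12 and 0.20 on the LIM arrays and 0.19, 0.46, 0.13 and 0.00 on the HER arrays. Its mean of 0.28 passed the adjusted p (limma, 0.0406) but not the fold threshold. The ornithine carrier SLC25A2 was called higher at 0.50 (limma adjusted p = 0.0268), a call that was lost when any one of LIM replicates 1 and 3 or HER replicates 1, 2 and 4 was left out, and under the other background corrections, between 0.10 and 0.20. The pyruvate carrier subunits MPC1 and MPC2, which lie outside the SLC naming, had means of -0.10 and 0.09 and were not called.

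**Figure D3:**
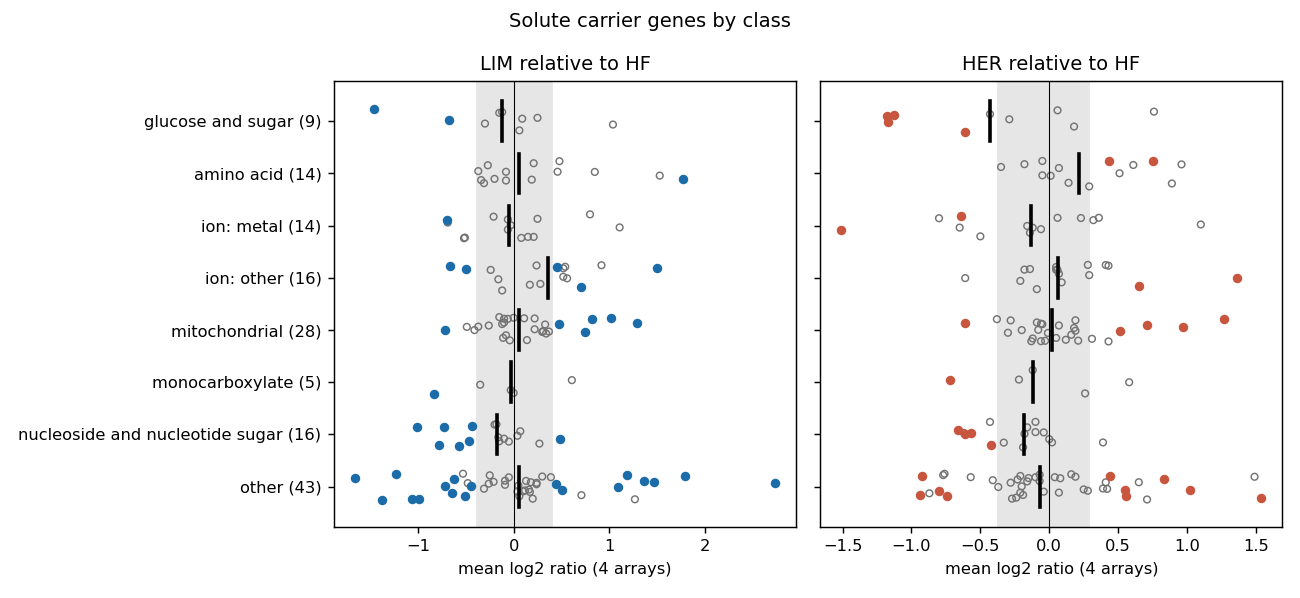
Mean log2 ratio over 4 arrays for each tested solute carrier gene in LIM (left) and HER (right) relative to HF, by class with the number of genes. Filled points were called, open points were not, black bars are class medians, and the grey band spans the middle 50% of all 17622 probes. Glucose and sugar carriers had a median of -0.43 in HER, and mitochondrial carriers sat near 0 in both breeds.

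The monocarboxylate carriers split by member. SLC16A1 (NM_001037319, MCT1), a carrier of lactate and pyruvate, gave -0.89, -1.25, -0.54 and -0.63 on the LIM arrays and -1.09, -1.14, -0.36 and -0.29 on the HER arrays. All arrays lay below 0 and the breeds overlapped, with a mean of -0.77 ± 0.13 (1.71-fold lower, limma adjusted p = 0.00201). SLC16A3 (MCT4), the lactate exporter of glycolytic muscle, stayed between -0.21 and 0.10 on all arrays (mean -0.08, limma adjusted p = 0.368). SLC16A7 (MCT2) had a mean of 0.59 ± 0.18 (limma adjusted p = 0.0256), with LIM replicate 4 at -0.34 and the other arrays between 0.25 and 1.28. The call was lost when any one of LIM replicates 1 to 3 or HER replicates 1 and 3 was left out. It was also lost under the other background corrections, between 0.19 and 0.37. The dimmer probe of the gene had a mean of 0.42 without a call, and averaging the probes ended the call. BSG (basigin), the chaperone that carries SLC16A1 and SLC16A3 to the surface, was called higher, with a mean of 1.41 ± 0.26 (limma adjusted p = 0.00278), so SLC16A1 and its chaperone had opposite signs. Among the 5 tested chaperones, scaffolds and pyruvate carrier subunits, the other gene called was PDZK1, a scaffold of apical carriers, which was not above background in HF cells on any array and was tested only through its beef channels.

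Ion carriers gave few calls. Of 30 tested genes, 3 were called higher and 1 lower in the mean of both breeds (13.3% beside 38.1% of all probes), with class medians of 0.16 in LIM (3 higher, 3 lower) and 0.05 in HER (2 higher, 2 lower). These medians moved with the processing, from 0.02 to 0.18 in LIM and from 0.00 to 0.11 in HER.

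Among the metal carriers, SLC30A7 (NM_001083760), a zinc carrier of the Golgi, was lower on every array. It gave -0.41, -0.50, -0.58 and -1.3 on the LIM arrays and -0.86, -0.42, -0.25 and -0.46 on the HER arrays. LIM replicate 4 was the lowest, and the mean was -0.60 ± 0.12 (1.52-fold lower, limma adjusted p = 0.00407). SLC40A1 (ferroportin), the iron exporter, gave 2.86, 1.16, 1.31 and -0.88 on the LIM arrays and 1.36, 1.28, 1.44 and 0.32 on the HER arrays. It was higher on 7 of 8 arrays, with LIM replicate 4 below 0 and HER replicate 4 close to 0. The mean was 1.11 ± 0.35 (2.16-fold higher, limma adjusted p = 0.0296), a call that was lost when any one of LIM replicates 1 to 3 or HER replicates 1 to 3 was left out, and the second probe of the gene had a mean of 0.76 without a call. SLC39A14, a zinc and iron importer, had a mean of -0.17 (limma adjusted p = 0.246), with LIM replicate 4 at 0.47 and the other LIM arrays between -0.51 and -0.39.

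Of the other ion carriers, SLC26A11, a sulfate carrier, gave 0.92, 0.96, 0.86 and 0.07 on the LIM arrays and 0.45, 0.68, 0.58 and -0.01 on the HER arrays. Replicates 4 of both breeds were at 0, the other arrays above it, and the mean was 0.57 ± 0.13 (limma adjusted p = 0.00681). SLC26A7, an anion exchanger, was not well above background in HF cells on any array, so it entered the test only through beef channels and its p is not given. In LIM, where the beef channel was above background on all 4 arrays, it was at least 1.66-fold higher, while in HER both channels were below background and no fold is given. Its call was lost under the other background corrections, between 0.13 and 0.26 in the mean. Among the ATP-driven ion pumps, 4 of 11 tested genes were called higher and 1 lower, beside 17.7% and 20.4% of all probes. Among them were ATP2A1, the calcium pump of fast muscle, at 1.81 ± 0.18 (limma adjusted p = 0.000291), ATP6V1B2 at 0.57 and ATP6V0D1 at 0.46, both subunits of the proton pump of acidic organelles, and FXYD6 at -0.43.

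Of 16 tested nucleoside and nucleotide sugar carriers, 4 were called lower and none higher in the mean (25% beside 20.4% of all probes called lower), and 12 were not called, with 6 lower and 1 higher in LIM and 4 lower and none higher in HER. SLC35B1 (NM_181338), which exchanges ATP and ADP across the membrane of the endoplasmic reticulum, gave -0.83, -0.94, -0.89 and -0.48 on the LIM arrays and -0.47, -0.40, -0.51 and -0.30 on the HER arrays. Values were closer to 0 in HER, with a small overlap, and the mean was -0.60 ± 0.08 (1.52-fold lower, limma adjusted p = 0.000549). SLC35C1 (NM_001101210), the GDP-fucose carrier of the Golgi, gave -1.02, -0.92, -1.31 and -0.81 on the LIM arrays and -1.09, -0.55, -0.34 and -0.30 on the HER arrays. All were below 0, with a mean of -0.79 ± 0.11 (1.73-fold lower, limma adjusted p = 0.000708).

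SLC35G2 (mean -0.69, limma adjusted p = 0.00328) and SLC35E3 (mean -0.50, limma adjusted p = 0.0165) completed the group called lower. The SLC35G2 call was lost under the other background corrections, between -0.32 and -0.18, and that of SLC35E3 under normexp with local backgrounds as measured, at -0.30. The nucleoside carrier SLC29A1 had a mean of -0.10 (limma adjusted p = 0.484).

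The other carriers held 43 tested genes, of which 10 were called higher and 12 lower in the mean (51.2% beside 38.1%). SLC44A4 (NM_001083442) gave -0.98, -1.06, -1.16 and -1.71 on the LIM arrays and -1.28, -0.88, -0.47 and -0.58 on the HER arrays (mean -1.02 ± 0.12, limma adjusted p = 0.000411), but its dimmer probe had a mean of 0.22 without a call. The folate carrier SLC19A1 gave -2.45, -1.54, -1.27 and -0.28 on the LIM arrays and -1.32, -1.45, -0.21 and -0.12 on the HER arrays (mean -1.08 ± 0.25, limma adjusted p = 0.00791). Both genes were below 0 on every array, and SLC19A1 was near 0 on both replicates 4 and HER replicate 3. Of 5 tested genes of dividing cells, 3 were called lower (MCM5 -0.91, PLK1 -0.74 and BUB1 -0.65), beside 20.4% of all probes. The part of these genes in the SLC19A1 values was not tested.

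SLC17A7, the vesicular glutamate carrier, was among the genes below 0 on all arrays, and ran from -1.13 to -0.15 (mean -0.50 ± 0.09, limma adjusted p = 0.00239). Other genes called lower in the mean were SLC18A2, SLC44A3, SLC27A1, SLC6A4, SLC13A2, SLC52A3, SLC19A3 and SLC14A2, with means between -0.91 and -0.38. Of these, only SLC18A2 and SLC27A1 were called under any of the other background corrections. The calls of SLC44A3, SLC19A3 and SLC14A2 were also lost with single arrays left out (SLC44A3 without LIM replicate 3 or HER replicate 1, 2 or 4, SLC19A3 without LIM replicate 1, 2 or 4 or HER replicate 2 or 4, SLC14A2 without LIM replicate 1 or 2 or HER replicate 1). SLC19A3 was not called in LIM, and in HER it was below background in both channels on every array, so its mean measures no level.

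On the higher side, SLC22A10 (NM_001101917) gave 2.25, 1.13, 1.22 and 0.85 on the LIM arrays and 1.54, 1.70, 1.77 and 1.16 on the HER arrays. All arrays were well above 0 (mean 1.45 ± 0.15, limma adjusted p = 0.000318), HF cells were above background on 4 of 8 arrays, and under the other background corrections the ratio lay between 0.29 and 0.62 and was not called at the lowest of these. SLC66A3 ranged from 0.22 to 2.27 (mean 0.92 ± 0.19, limma adjusted p = 0.00542). The peptide carrier SLC15A1 ranged from 0.00 to 3.09 (mean 1.25 ± 0.33) and was above background on 5 of 8 beef and 2 of 8 HF arrays. Levels of SLC15A1 were thus near the detection limit, and its call was lost under the other background corrections. Since the gene passed the filter mainly through beef channels, no p is given.

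SLC46A3, a lysosomal carrier, and SLC46A2 were not well above background in HF cells on any array, and were at least 2.14-fold and at least 4.30-fold higher in LIM. Both entered the test only through beef channels, so no p is given (SLC46A2 was above background on 3 of 4 LIM arrays, and its LIM call was lost without any one of LIM replicates 2, 3 and 4). In LIM, both calls were lost under the other background corrections. Under these, the ratio in the mean of both breeds was 0.07 to 0.23 for SLC46A3 and 0.41 to 0.61 for SLC46A2. The bounds thus hold only for the signals of the scanner software. SLC46A2 was chosen after its values were seen, as were SLC6A14, SLC45A1, SLC25A2, SLC25A39, SLC16A7, SLC26A11, SLC35E3, the genes named only to complete a direction of this class, and SLC39A12 below. SLC22A15, SLC15A4, SLC66A2, SLC44A2 and SLC22A17 completed the genes called higher, with means between 0.39 and 0.87. The call of SLC22A15 was lost under the other background corrections, that of SLC44A2 without LIM replicate 1 or 2, and that of SLC22A17 without LIM replicate 1, 2 or 3 or HER replicate 2 or 3. Of the carriers of muscle energy supply, 2 were not called, the creatine carrier SLC6A8 (mean 0.17, arrays from -1.08 to 1.17, limma adjusted p = 0.612) and the carnitine carrier SLC22A5 (mean 0.16, limma adjusted p = 0.157).

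**Figure D4:**
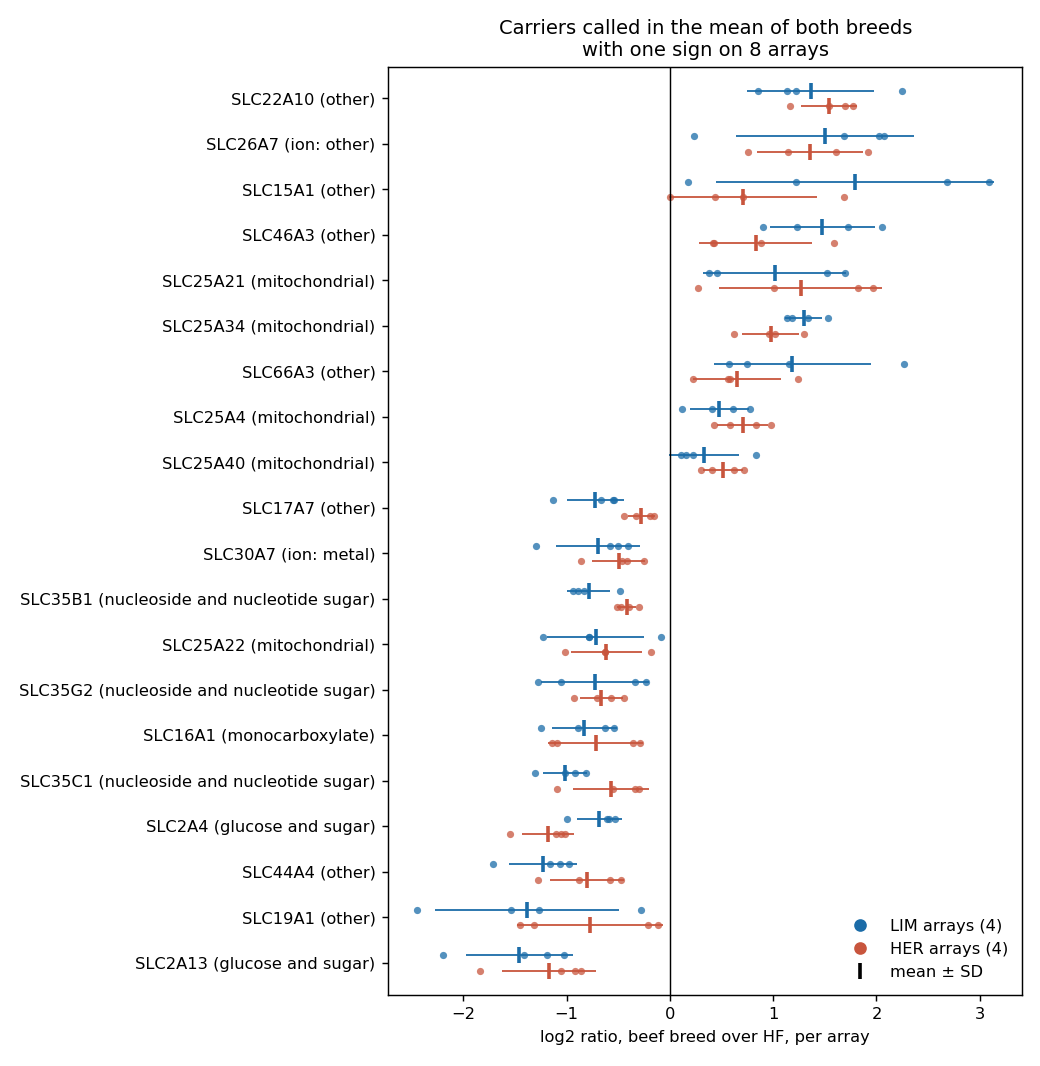
Log2 ratio of beef breed over HF (x axis) on each of 4 LIM arrays (blue points) and 4 HER arrays (red points), with mean and SD over arrays, for genes named because they were called in the mean of both breeds with one sign on all arrays, at most 4 per class and direction. Ratios ran from -2.45 for SLC19A1 to 3.09 for SLC15A1, with the latter at 0.00 on HER replicate 3. The HER points of SLC26A7 and SLC46A3 came from signals below background in both channels and measure no level.

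On all 8 arrays, 16 carriers (11%) were higher and 21 (14.5%) lower, beside 11.7% and 17% of all probes. Of these, 12 and 14 were also called in the mean of both breeds. The 12 include SLC26A7 and SLC46A3, whose signals were below background in both channels on every HER array, so their HER signs measure no level.

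No carrier passed the adjusted threshold for a difference between the LIM and HER ratios (limma, 0 of 145, beside 0.233% of all probes). At an unadjusted p, 26 carriers (beside 14.1% of all probes) met the same thresholds by limma and 21 (beside 12.1%) by the methods' t-test. SLC18A2, the vesicular monoamine carrier, gave -0.81, -1.52, -2.21 and -2.09 on the LIM arrays and -0.45, -0.14, -0.13 and 0.07 on the HER arrays. The LIM and HER values did not overlap, with all LIM arrays lower (-1.66 in LIM, -0.16 in HER, limma adjusted p of the difference 0.104). Dye and slide differed between these arrays as well and cannot be told apart from breed. The serotonin carrier SLC6A4 had the reverse order, with LIM between -0.41 and 0.06 and HER between -1.19 and -0.71 (limma adjusted p of the difference 0.12). SLC27A1, a fatty acid transport protein, was -0.99 in LIM and -0.04 in HER, where the difference had a limma adjusted p of 0.185. With array weights, SLC18A2 and SLC6A4 did pass (limma adjusted p = 0.0469 and 0.045), and the zinc carrier SLC39A12 passed with outlier spots kept and without HER replicate 2. SLC39A12 was above background on 2 LIM beef arrays and on 3 HF arrays of the HER slide, so most of its signals were near the limit of detection. All of these channels were Cy5, and no Cy3 channel of either slide was above background. The gene entered the test only through the side that was high on each slide, so no p is given. Its difference cannot be told apart from dye.

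Of the 44 carriers called in the mean, 33 were above background in all 16 channels, and 3, all among the 22 called higher (SLC26A7, SLC46A2 and SLC46A3), were below it in HF cells on every array. Of 11 genes with 2 tested probes, 7 had probes of one sign. SLC15A4, a lysosomal histidine and peptide carrier, had probes called in opposite directions (0.49 for the brighter, -0.83 for the other), so its direction is uncertain. SLC7A7 had a dimmer probe called higher at 0.56 and a brighter one at -0.13. For 31 genes no probe passed the filter, among them SLC2A12 and SLC2A2 of the glucose carriers, SLC8A1, the sodium-calcium exchanger of cardiac muscle, and SLC16A4. The carriers SLC3A2, SLC7A11, SLC38A1, SLC25A3, SLC12A2, SLC20A1 and SLC30A1 had no probe named here and were not analysed here.

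The markers of other cells and states are given in full for the mean of both breeds. In that mean, 17.7% of all probes were called higher and 20.4% lower. Of satellite cell and myoblast markers, 5 of 7 tested were called higher and none lower, MYF5 and MYOD1 were above background on all arrays, PAX7 had no probe named here, and the 9 markers of differentiating muscle cells had summed signals of 49600 to 104000 in LIM cells against 3310 to 9040 in HF cells, and of 14300 to 96900 in HER cells against 1770 to 9830. Fibroblast markers were called higher in 7 and lower in 3 of 11, smooth muscle and pericyte markers higher in 4 of 6, adipocyte markers higher in 2 and lower in 3 of 8, and macrophage and leukocyte markers higher in 1 and lower in 1 of 3. The summed adipocyte signal was 18300 to 63900 in LIM cells against 119000 to 150000 in HF cells, and 38500 to 51700 in HER cells against 55200 to 112000. Bright probes weigh most in such a sum. The median log2 ratio over the adipocyte markers was -0.15 in LIM and -0.36 in HER, so the sum does not stand for each marker. In LIM cells the summed fibroblast signal was 367000 to 795000, against 74300 to 236000 in HF cells. In HER cells it was 284000 to 552000, against 62200 to 161000. The called muscle markers were thus all higher in beef cells. Fibroblast markers were called in both directions, most of them higher and with a higher sum. Adipocyte markers were also called in both directions, with a lower sum. The part of such cells in the carrier values was not tested. Of the listed members of the ABC family, named for an ATP-binding cassette, 1 of 7 was called higher (the lipid pump ABCA3, 1.18) and 2 lower, among them ABCE1, a factor of ribosome recycling that is no membrane pump, at -0.56.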

How the data were processed

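Ratios came from 8 two-colour arrays of muscle cell cultures, 4 per comparison, grouped by the sample titles. The authors deposited the Feature Extraction 10.7.3.1 output of each array, with spot and background intensities and the log10 of red over green signal, background-subtracted and dye-normalized by the software, and a series table with the same log10 ratio. Here the log10 ratio was turned to log2 beef breed over HF, control and outlier spots were left out, and spots of a probe were averaged. Some ratios are exactly 0 where neither channel gave a usable signal. Probes above background in 4 or more of 16 channels were fitted together (limma 3.58.1, R 4.3.3, lmFit and eBayes) with a mean per comparison. Of 9599 RefSeq accessions, 7793 matched a RefSeq table (ARS-UCD2.0), and no coordinates are given because the array rests on another assembly. The number of arrays limits precision.

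Named genes were up to 4 per class and direction called in the mean of both breeds with one sign on 8 arrays, a list of well-known carriers, and others marked as chosen after their values were seen. A few genes that enter the counts are not reported here by name. The members and lists were chosen with earlier results of these data known. The steps were tested on simulated data. Alternatives covered background correction (normexp with offset 50, or none), each on median signals with loess in place of the software's dye normalization. Others covered scaling, filters, p adjustment, fold threshold, array weights, replicate block, probe averaging and leaving out each array.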

Additional observations from a re-analysis of the deposited data

Results flagged for a closer look

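In 7 of 128 groups of 4 arrays, 1 array lay far from the others, and chance alone gives about 1 in 20. For SLC6A6, HER replicate 3 was at -0.25 with the other HER arrays between 1.22 and 1.47. For SLC2A4, HER replicate 4 was at -1.55 with the others between -1.10 and -1.02. For SLC40A1, HER replicate 4 was at 0.32 with the others between 1.28 and 1.44. For SLC13A2, HER replicate 1 was at -0.49 with the others between -0.21 and -0.18. For SLC39A14, LIM replicate 4 was at 0.47 with the others between -0.51 and -0.39. For SLC26A11, LIM replicate 4 was at 0.07 with the others between 0.86 and 0.96. For SLC25A40, LIM replicate 3 was at 0.83 with the others between 0.11 and 0.22.

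In 3 carriers the ratio was above 0 on every array of one breed and below 0 on every array of the other, and for 1 of them, SLC24A1, the HER ratios came from signals below background. SLC6A17, a vesicular amino acid carrier, differed by -1.12 (LIM minus HER, -0.37 against 0.75, limma adjusted p = 0.14). SLC24A1, a sodium-calcium-potassium exchanger, had a fitted difference of -1.33 (-0.67 against 0.65), but no HER array was above background in either channel, so its HER sign measures no level. SLC25A24, the calcium-regulated ATP-Mg/phosphate carrier of mitochondria, differed by 0.69 (0.30 against -0.38, limma adjusted p = 0.154). No such difference passed the adjusted threshold. No share over all probes is given for this split, so the 3 carriers cannot be read against the array as a whole. The split also holds the difference of dye and slide.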

How the results depend on the processing

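Over the named carriers, 4027 of the values under alternative settings kept direction and call, 486 lost the call, 81 gained it and 40 turned in sign. Of 44 calls in the mean of both breeds, 44 were kept with the series table and 28, 27 and 22 with no background correction, normexp with marked backgrounds replaced, and normexp with backgrounds as measured (limma). These 3 settings also used loess in place of the software's dye normalization, and gave smaller ratios for dim probes. At 2-fold, 12 remained. The HER count of 30 was 0 by limma with normexp as measured (13 at an unadjusted p), 19 with marked backgrounds replaced, 0 with the methods' t-test after adjustment (29 before it) and 8 at 2-fold, and 7 to 40 with 1 array left out. The LIM count of 41 was 25 with normexp as measured, 5 with the adjusted t-test, 16 at 2-fold, 24 with the comparison fitted alone and 25 to 49 with 1 array left out. The count in the mean was 38 to 51 with 1 array left out. The breed difference gave 0, but 26 without adjustment, 21 by the unadjusted t-test, 2 with array weights, 1 with outlier spots kept and 0 to 1 with 1 array left out.

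Class medians in HER, in the order normexp as measured, marked backgrounds replaced and no correction, were 0.04 for amino acid carriers (first setting alone), -0.05, -0.13 and -0.16 for glucose carriers, and 0.01 in each for ion carriers. In LIM they were 0.03, 0.05 and 0.07 for ion carriers. Without the filter, medians were -0.15 (glucose, HER), 0.00 (ion, HER) and 0.08 (ion, LIM), and with all channels above background -0.71 (glucose, HER) and 0.02 (ion, LIM). Centring arrays gave 0.11 (ion, HER) and 0.08 (mitochondrial, HER). With 1 array left out, ion medians ran from -0.04 to 0.05 in HER and from 0.12 to 0.20 in LIM, and mitochondrial medians from -0.02 to 0.08 in HER. The cause of these shifts was not tested.

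Signs turned for SLC15A4 when its probes were averaged (LIM -0.35, mean -0.17, from 0.44 and 0.49). Every other sign change was in a value that was not called. In LIM, SLC16A3 was 0.04, 0.05 and 0.05 under the 3 background settings and -0.08 to 0.01 with 1 array left out. SLC25A6 was 0.08, 0.07 and 0.09 there, and -0.25 to 0.09 with 1 array left out, with -0.35 in HER and -0.13 in the mean under normexp as measured and -0.04 to 0.13 in the mean with 1 array left out. In HER, SLC27A1 was 0.01 under the 3 settings, 0.02 centred and -0.10 to 0.02 with 1 array left out. SLC29A1 in HER was 0.03 with backgrounds replaced or uncorrected, 0.02 centred or scaled, and -0.15 to 0.06 with 1 array left out. With 1 array left out, the LIM values of SLC2A1, SLC6A4 and SLC7A5 ran from -0.52 to 0.15, from -0.14 to 0.02 and from -0.20 to 0.04. SLC38A2 in the mean was -0.03 scaled and -0.02 to 0.06 with 1 array left out. SLC6A8 was -0.14 in HER under normexp as measured, and with 1 array left out -0.06 to 0.53 in HER and -0.11 to 0.49 in LIM. SLC19A3 in LIM was 0.04 with array weights, and -0.23 to 0.08 with 1 array left out. SLC7A8 in HER was -0.38 to 2.36 with 1 array left out.

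The replicate block gave 43 calls in LIM, 33 in HER, 47 in the mean and 0 for the difference. Of the 44 calls in the mean, 43 stood with it, SLC25A2 did not (0.50, limma adjusted p = 0.0725), and SLC2A1 gained one (limma adjusted p = 0.0295). The labels do not say that a number marks a shared culture, and deviations of same-numbered arrays correlated at -0.236, 0.129, 0.305 and 0.54, so the numbers were not used as pairs. Fitting each comparison alone gives no mean or difference, and the slide could not be entered as a block because each holds 1 comparison.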
